A study of Mus musculus with 76 samples.

Results

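The neurons described here were 53 of the 76 hypothalamic neurons collected by Patch-seq, sorted by the neurotransmitter genes counted in each. Cells with 1 or more counts of *Slc17a6*, which encodes the vesicular glutamate transporter VGLUT2, formed the first set (19 cells). Cells with no *Slc17a6* count and 10 or more counts on *Gad1* plus *Gad2*, which encode the enzymes that make GABA from glutamate, formed the second set (34 cells). The remaining 23 cells were left out. The first set was proposed as glutamatergic and the second as GABAergic, but 15 of the 19 *Slc17a6* cells also held 10 or more *Gad* counts, so that the data go against a purely glutamatergic name. The sets are therefore called Slc17a6+ cells and Gad-only cells. *Slc32a1*, the vesicular GABA transporter, was close to absent from either set, with a count in 1 of the 19 Slc17a6+ cells and in 2 of the 34 Gad-only cells.

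Patch-seq joins an electrical recording of a neuron with sequencing of what the same pipette takes up from it, so that each library stands for 1 cell. The cells came from male mice whose *Pomc* promoter drove tamoxifen-inducible CreERT2 and, through it, the red reporter tdTomato; a green eGFP reporter showed whether the promoter was active at the recording. Tamoxifen was given at 12 weeks of age for 5 days and the diets began 2 weeks later. Ghost cells carried tdTomato without eGFP and Pomc+ cells carried eGFP, and each came from mice fed chow (CD) or a high-fat diet (HFD) for 6 months. The results section and the methods of the study differ on whether the eGFP allele was part of the strain name. On CD there were 23 Pomc+ and 15 Ghost cells, and HFD added 19 of either label, from 5 mice per diet and 3 independent experiments. The labels tie no cell to a mouse, so that cells of a set share an unknown number of animals and no p-value was computed from them. The means below carry the SD over cells, and the intervals on shares are exact Clopper-Pearson intervals at 95% that cover counting error only.

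Pomc neurons of the arcuate nucleus release melanocortin peptides cut from pro-opiomelanocortin and lower food intake. They also use fast transmitters, and subsets that carry markers of glutamate release, of GABA synthesis or of both have long been described. A glutamatergic neuron loads vesicles through VGLUT2, while a GABAergic neuron makes GABA with GAD67 (*Gad1*) and GAD65 (*Gad2*) and loads it through the transporter encoded by *Slc32a1*. The question addressed here was how cells with the glutamatergic marker differed from cells with the GABA-synthesis markers alone, in how many genes they gave, under which label and diet they were found, and in which genes their levels stood apart.

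In the Ensembl annotation of the mouse genome build GRCm38 used for positions (GENCODE M21), *Slc17a6* lies on the plus strand of chromosome 7 from 51622006 to 51671119, *Gad1* on the plus strand of chromosome 2 from 70553072 to 70602014, and *Gad2* on the plus strand of chromosome 2 from 22622205 to 22693874. *Slc17a6* counts in the 19 cells ran from 1 to 578. The lowest members held 1, 1, 2, 2, 2 and 13 counts, so that membership of 5 cells rested on 1 or 2 counts. In CPM, a count over the total of its cell times 1000000, *Slc17a6* had a median of 63.9 and ran from 1.62 to 572. The members were chosen by these counts, which are given as a description only.

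Both *Gad* genes were counted in 11 Slc17a6+ cells, *Gad1* alone in 2, *Gad2* alone in 3 and neither in 3. In the Gad-only cells both were counted in 23, *Gad1* alone in 4 and *Gad2* alone in 7. The lowest Gad-only cells held 12, 16 and 20 counts on the pair, and the highest left-out cells 9, 5 and 5. The summed *Gad* level was much alike in the median cell of either set, 479 CPM among Slc17a6+ cells (range 0 to 2756) and 433 CPM among Gad-only cells (range 13.5 to 4930). *Gad1* averaged 282 ± 471 CPM in Slc17a6+ cells (SD, n = 19) and 318 ± 401 CPM in Gad-only cells (SD, n = 34), and *Gad2* averaged 285 ± 258 and 517 ± 911 CPM.

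**Figure D1:**
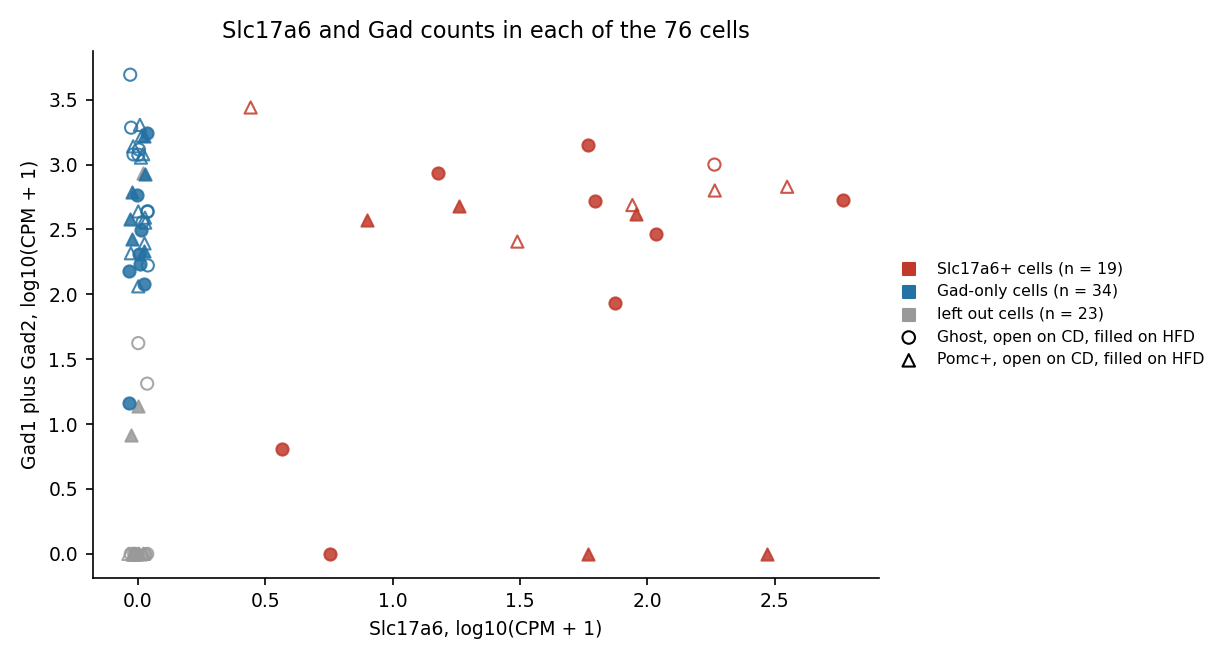
Each point is 1 of the 76 cells, with Slc17a6 on the x axis and Gad1 plus Gad2 on the y axis, both as log10(CPM + 1), colour for the set, shape for the label and open or filled for the diet; points at 0 on the x axis are spread sideways to be seen. Of the 19 red Slc17a6+ cells 15 lie at Gad levels within the range of the blue Gad-only cells, and the other 4, at or near 0 on the y axis, are all on HFD.

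The 4 Slc17a6+ cells with under 10 *Gad* counts were all from HFD mice, 2 Ghost and 2 Pomc+. Their *Slc17a6* counts were 1, 2, 13 and 394, and they gave 2043 to 4250 genes with a median of 2747.5. The 15 cells with both markers gave a median of 5705 genes. So the group that comes nearest to the glutamatergic name was small, and 2 of its 4 cells entered on 1 or 2 counts. Those 2 also held counts of GABA markers. Ghost cell 640 on HFD had 2 *Gad1* counts beside 1 of *Slc17a6*, and Ghost cell 646 on HFD had 4 *Slc32a1* counts beside 2 of *Slc17a6*.

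Slc17a6+ cells gave more genes. Genes with a count numbered 5209 in the median Slc17a6+ cell (quartiles 2886 and 7306.5, range 1257 to 9808) and 3389 in the median Gad-only cell (quartiles 2402.5 and 5284.5, range 586 to 7355). The ranges overlapped over most of their length, and 5 Slc17a6+ cells stood above the highest Gad-only cell. The left-out cells gave a median of 1632 genes.

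Depth differed the same way. Total counts had a median of 652962 in Slc17a6+ cells, 368654 in Gad-only cells and 91631 in left-out cells, within 4057 to 1452605 over all cells. Of the 25 shallowest cells 2 were Slc17a6+, 9 Gad-only and 14 left out, and of the 26 deepest cells 11 were Slc17a6+, 12 Gad-only and 3 left out. A deeper cell is more likely to pass a rule that asks for 1 count. When each cell was thinned to 40000 counts, which 19 Slc17a6+ and 31 Gad-only cells could supply, the medians were 3920 genes (range 933 to 6716) and 2245 genes (range 722 to 5580). The 4 Slc17a6+ cells with under 10 *Gad* counts had a median of 2078 genes at that depth. *Slc17a6* was still counted in 15 cells at that depth, 12 of them with a *Gad* count.

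The libraries also differed in make-up. The single most counted gene, ENSMUSG00000119584, for which the name table had no symbol, made up 19.9% of the median Slc17a6+ library and 39.96% of the median Gad-only library, and the 7 genes counted in every one of the 76 cells took 25.9% and 53.9%. Without those 7 genes and at 10000 counts per cell, the medians were 3021 genes in 19 Slc17a6+ cells and 2125 genes in 33 Gad-only cells. Over all Slc17a6+ cells the higher number of genes held on both diets. The medians were 6956 and 3389 genes on CD (n = 6 and 20) and 4250 and 3165.5 genes on HFD (n = 13 and 14). It also held in Ghost cells (4074 and 2933 genes) and in Pomc+ cells (5366.5 and 3650 genes). The part of the libraries' make-up in the differences between genes below was not tested.

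**Figure D2:**
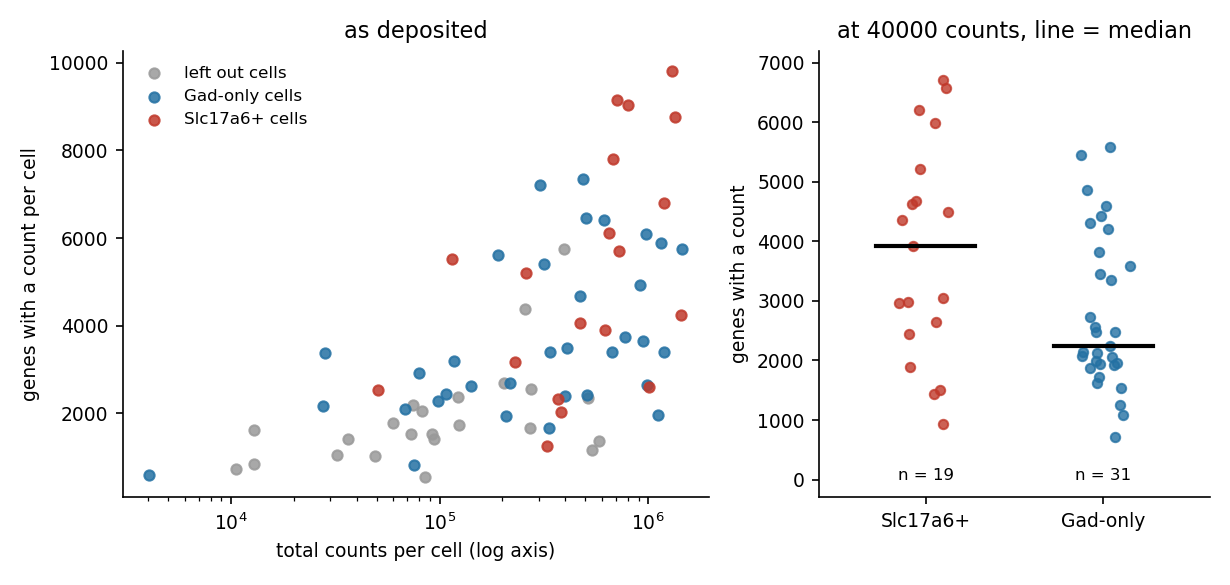
Left, genes with a count against total counts of each cell (log axis), coloured by set; right, genes with a count after each member cell was thinned to 40000 counts, with the median as a line. Slc17a6+ cells sit to the right and high on the left plot, and at equal totals their median of 3920 genes lies above the 2245 genes of Gad-only cells while the points overlap.

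The share of Slc17a6+ cells was much the same under either label and was higher on HFD than on CD, with intervals that overlapped. Ghost cells held 9 Slc17a6+ and 17 Gad-only cells, so that 34.6% of the Ghost members were Slc17a6+ (17.2% to 55.7%), and Pomc+ cells held 10 and 17, or 37.04% (19.4% to 57.6%). On CD 6 members were Slc17a6+ and 20 Gad-only, or 23.1% (8.97% to 43.6%), and on HFD 13 and 14, or 48.1% (28.7% to 68.1%). By label and diet the counts of Slc17a6+ and Gad-only cells were 1 and 9 among Ghost cells on CD, 8 and 8 among Ghost cells on HFD, 5 and 11 among Pomc+ cells on CD, and 5 and 6 among Pomc+ cells on HFD. The interval on the share among Ghost cells ran from 0.253% to 44.5% on CD and from 24.7% to 75.3% on HFD.

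Cell numbers in the labels ran in 8 blocks of 1 diet each. The block of numbers 637 to 657, on HFD, held 9 of the 19 Slc17a6+ cells and 6 Gad-only cells, and the other 3 HFD blocks together held 4 Slc17a6+ and 8 Gad-only cells. Total counts on CD and HFD had medians of 237139 and 352486 over all cells. The labels do not explain the blocks, and diet, block and depth cannot be told apart in the share of Slc17a6+ cells.

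Across genes, mean CPM was compared for the 11855 genes that held 5 or more counts in at least 3 member cells, without the 3 genes of the rule. At least 2-fold higher in Slc17a6+ cells were 4199 genes (35.4%), and at least 2-fold lower were 1344 (11.3%). The past-2-fold state held with each cell left out in turn for 2131 (18%) and 569 (4.8%). The ratio of the median gene was 1.49, not 1, so that a ratio near 1.5 is what a gene in the middle of the table showed. Relative to that gene 2532 (21.4%) were 2-fold higher and 2291 (19.3%) lower. When the 7 genes counted in every cell were taken out of the totals, the ratio of the median gene was 1.07, and 2953 (24.9%) were higher and 2308 (19.5%) lower. For many named genes the ratio is therefore followed by its value relative to the median gene. A gene can pass the filter through the set where it is high alone, as *Grik4* and *Hcn4* did in lists below. Counts over a list and over all genes include such genes and are a description only. The comparison is one of cells with both markers against cells with *Gad* alone. When the 15 Slc17a6+ cells with 10 or more *Gad* counts were left out, the other 4 gave a median ratio of 0.368. Of the 9455 genes then compared, 1927 (20.4%) were higher and 5101 (53.95%) lower. For many named genes the ratio over these 4 cells was under 1, as it was for the median gene. *Gria4* (0.222), *Kcnn3* (0.180) and *Scn9a* (0.111) lay under that median of 0.368, and *Dlg4* (0.648) lay above it.

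*Pomc* was counted in all 19 Slc17a6+ cells and in 32 of 34 Gad-only cells. Its level was 10272 ± 11045 CPM in Slc17a6+ cells (SD, n = 19; lowest 83.5, median 6747, highest 37106) and 7043 ± 9376 CPM in Gad-only cells (SD, n = 34; lowest 0, median 3908, highest 43974). The ratio of 1.46 was 0.978 relative to the median gene, and the sets overlapped over nearly the whole range. It was 1.25 to 1.73 with each cell left out in turn. Among Ghost cells the ratio was 2.55, from means of 8088 ± 10334 and 3166 ± 3838 CPM, and among Pomc+ cells it was 1.12, from 12238 ± 11832 and 10919 ± 11603 CPM. On CD the ratio was 2.15 and on HFD 1.79. Both are above the pooled 1.46, since most Slc17a6+ cells were on HFD, where *Pomc* was low in either set (means of 5159 and 2886 CPM, against 21352 and 9952 CPM on CD).

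Other genes of Pomc neuron identity lay on either side of the median gene. Of 10 listed genes 8 passed the filter, some of them counted in few cells. Of the 8, 1 was 2-fold higher and none lower, beside 35.4% and 11.3% of all genes. That 1 was *Nkx2-1*, a transcription factor needed for the medial basal hypothalamus and for *Pomc* expression. It was counted in 11 of 19 Slc17a6+ cells and in 9 of 34 Gad-only cells. Its mean was 32.8 ± 64.8 CPM against 6.23 ± 18.1 CPM, a ratio of 5.26 (3.52 relative to the median gene), which stayed within 3.06 to 9.57 with each cell left out. The Slc17a6+ cells with *Nkx2-1* were 8 Pomc+ and 3 Ghost, and the ratio was 10.6 among Pomc+ and 1.66 among Ghost cells. *Cartpt*, the CART peptide precursor that Pomc neurons make beside POMC, had a ratio of 0.910 (0.610 relative; means of 2666 and 2930 CPM). *Tbx3* stood at 1.48 (0.994 relative), *Isl1* at 1.09 (0.728 relative) and *Prdm12* at 1.51 (1.01 relative), all transcription factors of Pomc neurons, and the sets overlapped for each. *Six6* had 0.857 (0.575 relative) and *Nr4a1*, a nuclear receptor counted in 4 and 3 cells, 0.641 (0.430 relative).

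Of the 11 listed genes of prohormone processing and secretory granules, all of which passed the filter, 2 were 2-fold higher and none lower, beside 35.4% and 11.3% of all genes, with a median log2 ratio of 0.70 beside 0.58 for all genes. *Pcsk2*, the convertase that cuts ACTH further towards melanocortins, had a ratio of 2.69 (1.80 relative to the median gene; 10 of 19 and 10 of 34 cells). *Pam*, which amidates peptides, had a ratio of 2.76 (1.85 relative; 12 of 19 and 19 of 34 cells). *Cpe*, the carboxypeptidase that trims the cut peptides, was counted in all 19 Slc17a6+ cells at 692 ± 292 CPM and in 29 of 34 Gad-only cells at 425 ± 434 CPM, a ratio of 1.63 (1.09 relative). Neither *Pcsk2* nor *Pam* stayed past 2-fold with each cell left out.

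Of the 10 listed transcription factors of GABAergic hypothalamic neurons 5 passed the filter. Among them *Dlx1*, *Dlx2*, *Dlx5* and *Dlx6os1* were rare in Slc17a6+ cells and passed through the Gad-only cells, where they were higher, so that no count over the list is given. The DLX factors drive *Gad* expression in forebrain interneurons. *Dlx1* was counted in 3 of 19 and 7 of 34 cells, with a ratio of 0.159 (0.107 relative to the median gene), which was 0.0598 to 0.303 with each cell left out. *Dlx5* was counted in 1 and 4 cells and *Dlx6os1*, transcribed antisense at the *Dlx6* locus, in 1 and 4 cells, with ratios of 0.262 (0.175 relative) and 0.121 (0.0811 relative). With each cell left out the ratio of *Dlx5* ran from 0.0326 to 0.592, so that it did not stay 2-fold lower, and that of *Dlx6os1* from 0.0336 to 0.265. *Dlx2* had no count in any Slc17a6+ cell; with 3 in place of the 0, this allows up to 15.8% of cells with a count. It had 151 counts in 5 Gad-only cells, 52.98% of them in 1 cell. With 3 counts over the Slc17a6+ set in place of the 0, its mean was 48.5-fold lower over all members. That figure is no bound on the level, since it counts reads, while 0 of 19 and 5 of 34 cells held the gene. It also moved: the ratio was 0.0338 without the cell that mattered most, 0.0498 on CD, 0.0499 on HFD and 0.445 on counts thinned to 40000. *Prox1* was counted in 5 of 19 and 13 of 34 cells, with a ratio of 0.491 (0.329 relative). The ratio for CD cells was 0.150 and that for HFD cells 1.20, so that *Prox1* did not lie lower on HFD.

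Too rare for the filter, *Dlx6* had no count in Slc17a6+ cells and 13 counts in 7 Gad-only cells, and *Meis2* had 2 counts in 2 cells against 32 counts in 6 cells. Any of *Dlx1*, *Dlx2*, *Dlx5*, *Dlx6* and *Dlx6os1* was counted in 4 of 19 Slc17a6+ cells and in 15 of 34 Gad-only cells. At 40000 counts this was so in 3 of 19 and 10 of 31 cells. On CD no Slc17a6+ cell of 6 and 8 Gad-only cells of 20 held such a count, and on HFD 4 of 13 and 7 of 14 did. These are few cells, and the same genes were absent from most Gad-only cells too.

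Of the genes that handle GABA, 4 of 6 passed the filter, 2 were 2-fold lower and none higher, beside 11.3% and 35.4% of all genes. The median ratio of this list was 0.486 over all members but 1.10 on HFD and 1.10 among Ghost cells. *Abat*, the transaminase that breaks GABA down, lay on the other side, with 247 ± 304 and 130 ± 179 CPM, a ratio of 1.90 (1.28 relative), and a count in 15 of 19 and 21 of 34 cells. Of the 10 genes that handle glutamate 8 passed, 1 was 2-fold higher and none lower, beside the same shares. Of the 10 listed transcription factors of glutamatergic hypothalamic neurons 2 passed, and neither was past 2-fold.

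**Figure D3:**
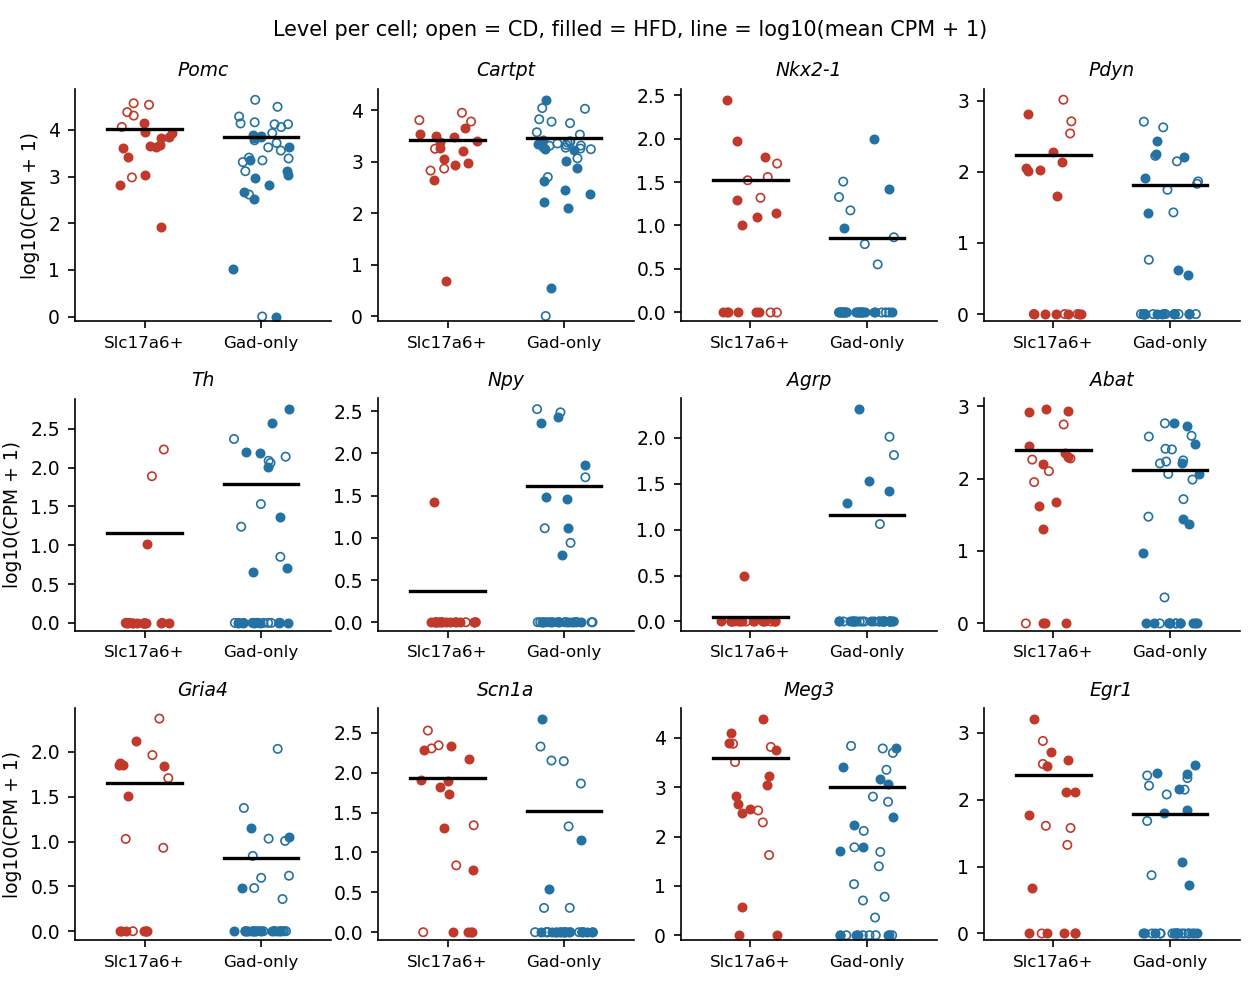
Each point is a cell, with the level as log10(CPM + 1) on the y axis for 12 genes in the 19 Slc17a6+ and 34 Gad-only cells, open on CD and filled on HFD; the line is log10 of the mean CPM + 1. Npy and Agrp are each above 0 in 1 Slc17a6+ cell and in 12 and 7 Gad-only cells, while Pomc and Cartpt overlap and Gria4, Scn1a and Meg3 are above 0 in a larger part of the Slc17a6+ cells.

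Among peptides of other arcuate neurons, *Npy* and *Agrp* were rare in Slc17a6+ cells and passed the filter through the Gad-only cells. *Npy*, the orexigenic peptide of AgRP neurons, was counted in 1 of 19 Slc17a6+ cells (5.26%, 0.133% to 26.03%) and in 12 of 34 Gad-only cells (35.3%, 19.7% to 53.5%). The 12 cells ran from 5.3 to 333 CPM with a median of 40.2 CPM, and the single Slc17a6+ cell held 25.3 CPM. Over all cells the ratio was 0.0335 (0.0225 relative), and with each cell left out it was at most 0.0432. At 40000 counts 1 and 10 cells held *Npy*. Of the 12 Gad-only cells 10 were Ghost and 2 Pomc+, so that the difference in *Npy* lay mostly among Ghost cells (0 of 9 Slc17a6+ and 10 of 17 Gad-only). *Agrp*, the inverse agonist of melanocortin receptors made by the same neurons, held 1 count in 1 Slc17a6+ cell and 112 counts in 7 Gad-only cells, 5 Ghost and 2 Pomc+. Either gene was counted in 2 Slc17a6+ and 15 Gad-only cells, and 4 Gad-only cells held both. Of the 5 listed genes of AgRP neurons 3 passed the filter. The third, *Acvr1c*, an activin-type receptor, was on the other side, with 277 counts in 2 Slc17a6+ cells and 40 counts in 4 Gad-only cells and a ratio of 3.85 (2.58 relative; 1.55 to 7.96 with each cell left out).

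*Th*, tyrosine hydroxylase of the arcuate dopamine neurons, was counted in 3 of 19 Slc17a6+ cells and 15 of 34 Gad-only cells, with means of 13.5 ± 41.8 and 59.8 ± 122 CPM and a ratio of 0.225 (0.151 relative). The ratio differed by diet. On HFD it was 0.00725, with 11 counts in 1 Slc17a6+ cell, and on CD it was 1.24, with 2 of 6 and 7 of 20 cells. No Slc17a6+ cell and 8 Gad-only cells held both *Npy* and *Th*. *Ghrh*, the growth hormone releasing hormone, was counted in 2 and 5 cells, with a ratio of 0.135 (0.0906 relative), and 62.7% of its Gad-only counts came from 1 cell.

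Other peptides had higher means in Slc17a6+ cells. *Pdyn*, the dynorphin precursor, was counted in 10 of 19 and 16 of 34 cells, at 170 ± 280 and 64.05 ± 122 CPM, a ratio of 2.65 (1.78 relative), of 4.32 for CD cells and 1.9995 for HFD cells, and of 1.91 at its lowest with a cell left out. *Tac1*, the substance P precursor, had a ratio of 19.4 (12.98 relative) but was counted in 4 and 3 cells, with 68.03% of the Slc17a6+ counts in 1 cell. In all, 10 of the 17 listed other arcuate peptides and dopamine genes passed the filter, 4 were 2-fold higher and 2 lower, beside 35.4% and 11.3% of all genes. Of the 14 receptors for metabolic and feeding signals that passed, of 17 listed, 2 were higher and none lower. The leptin receptor *Lepr* (ratio 0.880, or 0.590 relative), the insulin receptor *Insr* (0.922, or 0.618 relative) and the GLP-1 receptor *Glp1r* (1.80, or 1.20 relative) were counted in 3 to 12 cells of a set and overlapped.

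**Figure D4:**
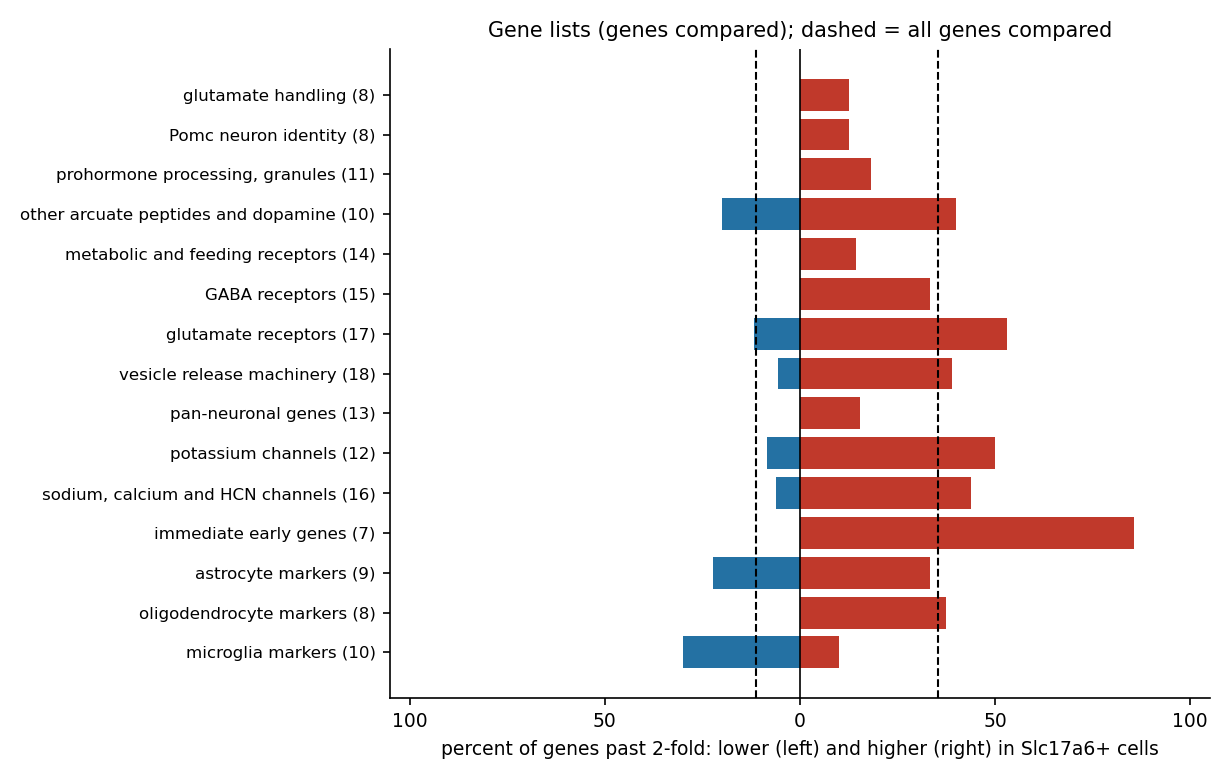
Bars give the percent of the genes compared in each list whose mean CPM was at least 2-fold lower (left) or higher (right) in Slc17a6+ cells, with the number of genes in brackets, for lists with 6 or more genes compared; dashed lines mark all 11855 genes, 11.3% lower and 35.4% higher. Immediate early genes (6 of 7) reach farthest to the right, and 2 of those 6 stayed 2-fold higher with each cell left out.

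Receptors and channels were read against the raised background. Of the 17 glutamate receptor genes that passed, of 20 listed, 9 were 2-fold higher and 2 lower, beside 35.4% and 11.3% of all genes. With each cell left out 5 stayed higher, beside 18%. The list had a median log2 ratio of 1.12 beside 0.58 for all genes. With the 7 genes out of the totals 7 were higher and 4 lower, beside 24.9% and 19.5% of all genes. Among Ghost cells the median ratio of the list was 0.804, below 1. *Gria4*, an AMPA receptor subunit, was counted in 11 of 19 and 12 of 34 cells at 44.2 ± 61.2 and 5.58 ± 18.6 CPM. Its ratio was 7.92 (5.31 relative) and at least 6.03 with each cell left out, 7.97 on CD and 18.8 on HFD. *Gria2*, the subunit that sets calcium permeability, had a ratio of 3.03 (2.03 relative; 12 of 19 and 21 of 34 cells). *Dlg4*, the postsynaptic scaffold PSD-95, had 4.30 (2.88 relative; 14 of 19 and 17 of 34 cells), and *Grm5*, a metabotropic receptor, had 3.71 (2.49 relative; 12 of 19 and 9 of 34 cells). *Grik4*, a kainate receptor subunit, had 14.3 (9.57 relative) on 5 and 3 cells. It is among the 9 higher genes but passed the filter through the Slc17a6+ cells, with 12 counts in the Gad-only set.

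*Grm5* had a ratio of 0.608 within the block that held most Slc17a6+ cells, where *Gria4* had 20.3. Of the 15 GABA receptor genes that passed 5 were 2-fold higher and none lower, beside 35.4% and 11.3% of all genes. Without the 7 genes 2 were higher and 2 lower, beside 24.9% and 19.5%. *Gabrg3* had a ratio of 2.13 (1.43 relative; 12 of 19 and 11 of 34 cells) and *Gabre* 7.24 (4.85 relative; 8 and 3 cells), both subunits of GABA-A receptors.

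Of the 16 sodium, calcium and HCN channel genes that passed, 7 were 2-fold higher and 1 lower, beside 35.4% and 11.3% of all genes, and 6 stayed higher with each cell left out, beside 18%. Both the 7 and the 6 include *Hcn4*, which passed the filter through the Slc17a6+ cells alone. Without the 7 genes 5 were higher and 2 lower, beside 24.9% and 19.5%. *Scn1a*, a pore subunit of the fast sodium current, was counted in 14 of 19 Slc17a6+ cells and 10 of 34 Gad-only cells at 85.9 ± 101.3 and 31.6 ± 92.3 CPM, a ratio of 2.71 (1.82 relative), but 0.821 within the block with most Slc17a6+ cells. At 40000 counts 12 of 19 and 4 of 31 cells held it. *Scn2a* had a ratio of 2.41 (1.62 relative; 16 and 15 cells) and *Scn9a* 3.45 (2.31 relative; 11 and 10 cells).

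The HCN channels carry the hyperpolarization-activated current that helps to set resting potential and pacing. *Hcn3* had a ratio of 5.05 (3.38 relative) on 6 and 3 cells. *Hcn4* held 335 counts in 6 Slc17a6+ cells, 227 of them in 1 cell, and 1 count in the Gad-only set. Of the 12 potassium channel genes that passed, 6 were higher and 1 lower, beside 35.4% and 11.3% of all genes, with 5 and 3 without the 7 genes, beside 24.9% and 19.5%. *Kcnn3*, a calcium-activated channel behind the afterhyperpolarization, had a ratio of 5.47 (3.67 relative; 9 and 7 cells).

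Genes of vesicle release and of neurons in general stayed near or under the background. Of 18 release genes 7 were higher and 1 lower, beside 35.4% and 11.3% of all genes. Without the 7 genes 2 were higher and 2 lower, beside 24.9% and 19.5%. *Syn2*, a synapsin of the vesicle pool, had a ratio of 2.20 (1.48 relative), and *Cplx2*, a complexin, 3.08 (2.07 relative). Of 13 pan-neuronal genes 2 were higher and none lower, and their median log2 ratio of 0.40 was under the 0.58 of all genes. *Meg3*, a long noncoding RNA rich in neurons, was counted in 17 of 19 and 22 of 34 cells at 3841 ± 6143 and 989 ± 1991 CPM, a ratio of 3.89 (2.60 relative), of 1.36 among Ghost cells and 5.45 among Pomc+ cells.

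Immediate early genes, which are switched on within minutes of neuronal activity, were 2-fold higher for 6 of the 7 that passed, beside 35.4% of all genes, with a median log2 ratio of 1.16. With each cell left out 2 of the 7 stayed higher, *Egr1* and *Npas4*, beside 18% of all genes. Without the 7 genes counted in every cell 3 were higher and none lower, beside 24.9% and 19.5%. *Egr1* was counted in 13 of 19 and 15 of 34 cells at 229 ± 399 and 59.3 ± 94.6 CPM, a ratio of 3.86 (2.58 relative) that stayed within 2.55 to 4.47 with each cell left out. *Npas4* had a ratio of 4.23 (2.83 relative; 7 and 5 cells). *Fos*, in 14 and 22 cells, had 2.23 (1.49 relative) but 0.733 among Ghost cells and 4.47 among Pomc+ cells.

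**Figure D5:**
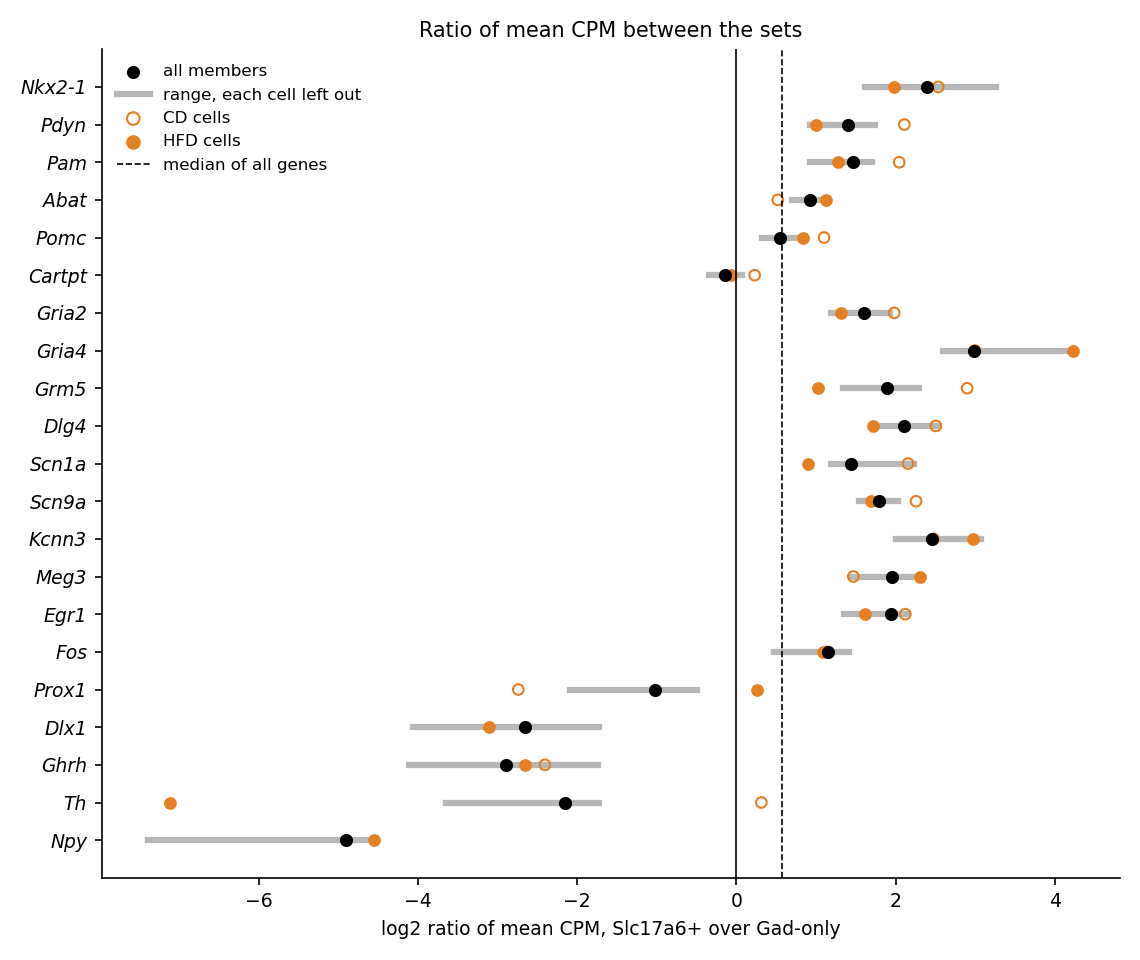
The x axis is the log2 ratio of mean CPM, Slc17a6+ over Gad-only, for 21 named genes; black points are all members, grey bars the range with each cell left out in turn, open and filled orange points CD and HFD cells where both sets held over 3 counts, and the dashed line the median of all genes. Npy, Ghrh and Dlx1 lie to the left wherever a point is drawn, but Npy and Dlx1 have no CD point. Gria4 and Kcnn3 lie to the right on both diets, and Th and Prox1 change side between the diets.

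By the rule that ranks genes on the ratio nearest to 1 with a cell left out, among genes counted in 10 or more member cells, the 10 highest were *Dele1*, *5830417I10Rik*, *Map3k3*, *Palld*, *Umps*, *Qrsl1*, *Cldn12*, *Prickle1*, *Carnmt1* and *Sema4b*. They were counted in 5 to 8 of 19 Slc17a6+ cells and 2 to 5 of 34 Gad-only cells. *Dele1*, a mitochondrial stress relay, had 453 counts in 8 Slc17a6+ cells and 4 counts in 2 Gad-only cells. *Map3k3*, a kinase, had 442 counts in 8 cells and 7 counts in 2 cells, but a ratio of 0.846 among Ghost cells. *Palld*, the actin-binding protein palladin, had 417 counts in 8 cells and 26 counts in 2 cells. *Umps*, an enzyme of pyrimidine synthesis, had 663 counts in 7 cells and 13 counts in 4 cells.

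The 10 lowest were *Kctd12*, *Nfix*, *Kcnk9*, *Rab39b*, *Npy*, *Pgm5*, *Fxyd2*, *Smn1*, *Tpm3-rs7* and *Zbtb18*. *Kctd12*, an auxiliary subunit of GABA-B receptors, held 6 counts in 1 Slc17a6+ cell and 230 counts in 10 Gad-only cells. *Nfix*, a nuclear factor I, held 4 counts in 1 cell and 146 counts in 10 cells, and *Kcnk9*, the TASK-3 leak potassium channel, 5 counts in 3 cells and 219 counts in 9 cells. *Fxyd2*, the gamma subunit of the sodium-potassium pump, was counted in 3 of 19 and 15 of 34 cells, at 2.06 ± 5.74 and 32.7 ± 52.97 CPM, a ratio of 0.0631 (0.0423 relative) that was 0.111 among CD cells and 0.0413 among HFD cells. At 40000 counts 1 of 19 and 13 of 31 cells held *Fxyd2*. *Tpm3-rs7* is a copy related to *Tpm3*, and *Smn1* has near relatives, so that reads may have been split among copies.

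A pipette can draw up RNA of other cells. Of all genes compared, 35.4% were 2-fold higher and 11.3% lower, which is the background for each marker list here. Astrocyte markers summed to a median of 478 CPM in Slc17a6+ cells and 261 CPM in Gad-only cells (range 0 to 2975 and 0 to 4321), with 3 of 9 genes 2-fold higher and 2 lower. Oligodendrocyte markers summed to 167 and 262 CPM (0 to 6164 and 0 to 1559), with 3 of 8 higher and none lower, and microglia markers to 84.4 and 81.6 CPM (0 to 2974 and 0 to 8748), with 1 of 10 higher and 3 lower. Tanycyte and ependymal markers summed to 69.02 and 14.9 CPM (0 to 1111 and 0 to 449), with 1 of the 2 that passed lower. Endothelial and mural markers were at 0 in all but 1 Slc17a6+ and 4 Gad-only cells.

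Of the microglia genes, *Aif1* was counted in 3 of 19 and 10 of 34 cells, with a ratio of 0.289 (0.194 relative), and *P2ry12* in 1 and 5 cells. The summed level of microglia markers had much the same median in either set, and was above 0 in 15 of 19 and 26 of 34 cells. Its mean was lower in Slc17a6+ cells, at 509 CPM against 768 CPM. The ratio was below 1 for 8 of the 10 microglia genes and above 1 for 2, with a median log2 ratio of -0.71. The part of these markers in the other results was not tested. The astrocyte and oligodendrocyte markers had median log2 ratios of 0.15 and 0.52, under the 0.58 of all genes.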

How the data were processed

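Patch-seq libraries of 76 single neurons were compared. From SMART-Seq Single Cell cDNA and Nextera XT libraries without molecular identifiers, the authors deposited raw counts of reads for 56980 Ensembl genes. The deposited normalized signal is the raw count divided by 1 DESeq2 size factor per cell. The submitters' processing notes name cutadapt 2.10 and STAR 2.7.5a with the build GRCm38, while the counting program is not given in the sources used here. Symbols came from a name table that matched 52073 identifiers.

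Sets were formed from raw counts (1 or more on *Slc17a6*; none there and 10 or more on *Gad1* plus *Gad2*). Mean CPM was compared for genes with 5 or more counts in at least 3 member cells, with Python 3.11.15, numpy 2.4.6, pandas 2.3.3 and scipy 1.17.1. A set without a count was given 3 counts over the set. Thinning drew counts without replacement with a fixed seed. The ratio and the thinning were tested on simulated data. The labels name no mouse, so that no test was run. Totals ran from 4057 to 1452605 counts per cell. The members and all 21 gene lists were chosen with earlier results of these data known. Named genes were the genes of the rule and the lists, and the 10 highest and 10 lowest by the leave-one-out rule among genes counted in at least 10 member cells. No cell was removed by a quality filter, and no doublet caller was run on these hand-patched cells. The alternatives are described in the closing section, and some listed genes are not reported here.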

Additional observations from a re-analysis of the deposited data

Results flagged for a closer look

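Within set, label and diet, groups of 4 to 10 cells were looked at for a cell far from the others, in 27 checks of a value in a group. The values were genes detected, total counts, and *Slc17a6*, summed *Gad* or *Pomc* level. A cell was marked by its gap to the next cell, as a share of the range, against fixed cut-offs. How often skewed CPM pass these cut-offs by chance is not known. In all, 5 cells stood apart, most of them on *Slc17a6* or *Gad* levels, the values that formed the sets. Ghost cell 671 on HFD gave 7210 genes, the most of the 8 Gad-only Ghost cells on HFD. Ghost cell 649 on HFD held *Slc17a6* at 572 CPM, the highest of the 8 Slc17a6+ Ghost cells on HFD. *Gad1* plus *Gad2* stood at 2756 CPM in Pomc+ cell 662 on CD, a Slc17a6+ cell with 1 *Slc17a6* count, at 4930 CPM in Ghost cell 712 on CD, and at 1754 CPM in Ghost cell 694 on HFD, the last both Gad-only.

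Outside the sets, the left-out Ghost cell 690 on CD held 11 counts of *Slc32a1*, above the 3 counts taken as the limit of a count of 0 and above the 8 counts of the highest member cell.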

How the results depend on the processing

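No paired analysis was possible because cell numbers only name cells and no result comes from a test. When the 15 cells with both markers were left out, 4 Slc17a6+ cells remained, making up 10.5% of Ghost and of Pomc+ members, 0% on CD and 22.2% on HFD. Of 9455 genes 1927 (20.4%) were then 2-fold higher and 5101 (53.95%) lower, and the *Pomc* ratio was 0.403. Ratios turned for *Pcsk2* (0.0243), *Pam* (0.869), *Pdyn* (0.0194), *Gria4* (0.222), *Grm5* (0.785), *Grik4* (0.858), *Dlg4* (0.648), *Gabre* (0.593), *Gabrg3* (0.653), *Kcnn3* (0.180), *Scn1a* (0.414), *Scn9a* (0.111), *Fos* (0.848), *Npas4* (0.159) and *Aif1* (1.15), and for the median ratios of the glutamate receptors (0.420) and immediate early genes (0.642). Genes 2-fold lower were 2308 of 11848 (19.5%) without the 7 genes counted in every cell, 2034 of 14644 (13.9%) with no filter and 75 of 11855 (0.633%) on mean log2(CPM + 1). Asking for 10 member cells left 2572 of 8394 genes (30.6%) higher and 585 (6.97%) lower. Ghost cells alone had 2758 of 8599 genes (32.1%) higher and 1648 (19.2%) lower. Of 11855 genes, ratios divided by the median gene gave 2532 (21.4%) higher and 2291 (19.3%) lower, and leaving out each cell in turn 2131 (18%) and 569 (4.8%). The main comparison had 35.4% higher and 11.3% lower. The *Pomc* ratio was 2.48 on mean log2(CPM + 1), 2.15 on CD, 2.55 in Ghost cells, 2.06 with the diets weighted equally and 3.24 within the block of most Slc17a6+ cells, and 1.25 to 1.73 with each cell left out. Ratios also turned for *Grm5* with the rule on thinned counts (0.899), *Th* on CD (1.24), *Prox1* on HFD (1.20), and *Fos* (0.733) and *Map3k3* (0.846) in Ghost cells; within that block they turned for *Dlx5* (1.99), *Grm5* (0.608) and *Scn1a* (0.821). The median ratio of GABA handling was 1.10 on HFD, 1.10 in Ghost cells and 1.46 in that block, and that of glutamate receptors 0.804 in Ghost cells. With the 15 cells with both markers left out, the median Slc17a6+ cell gave 2747.5 genes, below the 3389 of the median Gad-only cell. The median gene itself then had a ratio of 0.368. Of the ratios that turned there, those of *Pcsk2*, *Pdyn*, *Gria4*, *Kcnn3*, *Scn9a* and *Npas4* lay under it and the others above it. The causes were not tested. Over all alternatives 937 of 1087 ratios of named genes and 258 of 333 list medians kept their state past or within 2-fold. A ratio that crossed 1 but stayed within 2-fold was counted among these, so that they do not all keep their direction. Using no filter, or asking for 10 member cells, cannot move the ratio of a named gene, so that all 52 were kept in each. The equal weight of diets, the block, the division by the median gene, the comparison kept to the 15 cells with both markers and the leave-one-out counts were chosen after the data were seen. Depth also limits the sets, since a shallow cell can lack a *Slc17a6* or *Gad* count by sampling alone.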

Other observations

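The 23 left-out cells, which held no *Slc17a6* count and under 10 *Gad* counts, were not without *Pomc*. It was counted in 22 of them, with a median of 1773 CPM and a range of 0 to 15213 CPM, below the medians of 6747 CPM in Slc17a6+ cells and 3908 CPM in Gad-only cells. Of these cells 8 were Ghost and 15 Pomc+, and 12 were on CD and 11 on HFD. Neither *Gad* gene was counted in 18 of them. Their median of 1522 genes at 40000 counts (18 cells) lay below the 2245 genes of Gad-only cells, so that fewer genes were seen in them at equal totals as well.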
